A study of Mus musculus with 4 samples.

Results

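The respiratory chain genes encode the protein subunits of the 5 complexes of oxidative phosphorylation, and they were taken by symbol: the Nduf structural subunits, Sdha to Sdhd, Uqcr, Cox4 to Cox8, Atp5 and the protein-coding genes of the mitochondrial genome. A gene had to reach 20 CPM (counts scaled to a common library total) in the summed barcodes of at least 8000 UMIs, a UMI being a molecular identifier that counts 1 captured transcript. Of 97 symbols that fitted among 32285 genes, 90 passed this level. Of these, 77 lie in the nuclear genome (36 for complex I, 4 for complex II, 8 for complex III, 12 for complex IV and 17 for complex V) and 13 in the mitochondrial genome (7, 0, 1, 3 and 2 in the same order). The lowest members were mt-Nd6 at 66.8 CPM and Atp5k at 89.2 CPM. The highest symbols left out were Cox7a1 at 4.78 CPM, Cox6a2 at 1.93 CPM and Cox4i2 at 0.291 CPM. Ndufa4 is counted with complex IV, where its protein sits.

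Tumours of C57Bl6 mice aged 6-8 weeks were profiled as single cells: 2 libraries carry the treatment label Control and 2 the label nanocapsule. The design sets tumours with nanoparticles against tumours without them. The labels give neither the tumour line nor the enzyme carried by the capsules, and no label says that the 2 libraries of a group came from separate animals. All p-values below therefore measure only the spread between these libraries, which may be technical.

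Respiration passes electrons from NADH through complex I and from succinate through complex II to ubiquinone, then through complex III and cytochrome c to complex IV, where oxygen is reduced. Complexes I, III and IV pump protons, and complex V, the ATP synthase, uses the gradient. Most subunits are made from nuclear genes on cytosolic ribosomes, whereas the core membrane subunits are made inside the organelle from a small circular genome that is transcribed as long RNAs and cut into messages. Complex II has nuclear subunits only. In tumours, respiration runs beside glycolysis, and subunits differ between tissues through paralogues.

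The libraries held 98943390 to 140491491 UMIs and gave 1076 to 3255 called cells each. Cells were clustered without the members and without any other mitochondrially encoded gene, so that cluster borders did not use them. The class called tumour-like held 2645, 891, 1209 and 815 cells in Control 1, Control 2, Nanocapsule 1 and Nanocapsule 2, the order used throughout. All 9 pigment cell markers of the list (Dct, Pmel, Mlana and others) were present in it at 5 CPM or more, with sums of 12927 to 14642 CPM. Macrophage-like cells numbered 43, 42, 54 and 71. A finer clustering (Leiden resolution 2.0) gave 36, 34, 43 and 44 macrophage-like and 7, 8, 11 and 27 T-like cells. The macrophage-like class used here may therefore hold T cells too, most of them in Nanocapsule 2. T-like cells (20, 79, 49 and 66) and B-like cells (49, 44, 43 and 21) came from a set with at least 1500 UMIs per cell, since few passed the first minimum. Libraries shared at most 13 cell barcodes in a pair.

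In tumour-like cells the mitochondrially encoded genes took a larger share of the RNA in the nanocapsule libraries and the nuclear genes a slightly smaller one. The 13 mitochondrially encoded genes summed to 25191 and 22102 CPM in the controls and to 29342 and 27318 CPM in the nanocapsule libraries. Both nanocapsule values lay above both control values, a difference of 19.99% in the means. The 77 nuclear genes summed to 42711 and 41588 CPM in the controls and to 40060 and 39716 CPM in the nanocapsule libraries, again without overlap and with a difference of -5.36% in the mean. Per nuclear UMI there were 0.590 and 0.531 mitochondrially encoded UMIs in the controls against 0.732 and 0.688 in the nanocapsule libraries. That ratio was 1.27-fold higher, or 0.34 on the log2 scale, with control and nanocapsule means of -0.84 ± 0.11 and -0.49 ± 0.06 (SD, n = 2 each). The two-sided exact permutation test gave p = 0.333, which is the smallest value that 2 libraries against 2 allow, so this test cannot reach 0.05.

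Control 2 decided part of the size of the mitochondrial difference: the log2 difference in the mitochondrial sum was 0.26 with all libraries and 0.17 without Control 2. Depth differed between the libraries, with medians of 38584, 83077, 61564 and 90138 UMIs per tumour-like cell, and within each library deeper cells had a smaller mitochondrial share (r from -0.24 to -0.42 across cells, which share a library and are no replicates). Among tumour-like cells of 40000 to 80000 UMIs, a window chosen after the data were seen, the mitochondrial sums were 22939, 24975, 29286 and 29835 CPM and the log2 ratio differed by 0.36. Median depth still differed inside the window, at 48453, 65560, 60223 and 67737 UMIs per cell, and the part of depth in the result was not tested. RNA outside cells moved too: in empty droplets the mitochondrial sum was 33173 and 17625 CPM in the controls and 33303 and 35862 CPM in the nanocapsule libraries, and its part in the result was not tested. Macrophage markers summed to 619 and 544 CPM in control and 591 and 509 CPM in nanocapsule tumour-like cells, with 1 of 9 markers at 5 CPM or more and none at 0.

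**Figure D1:**
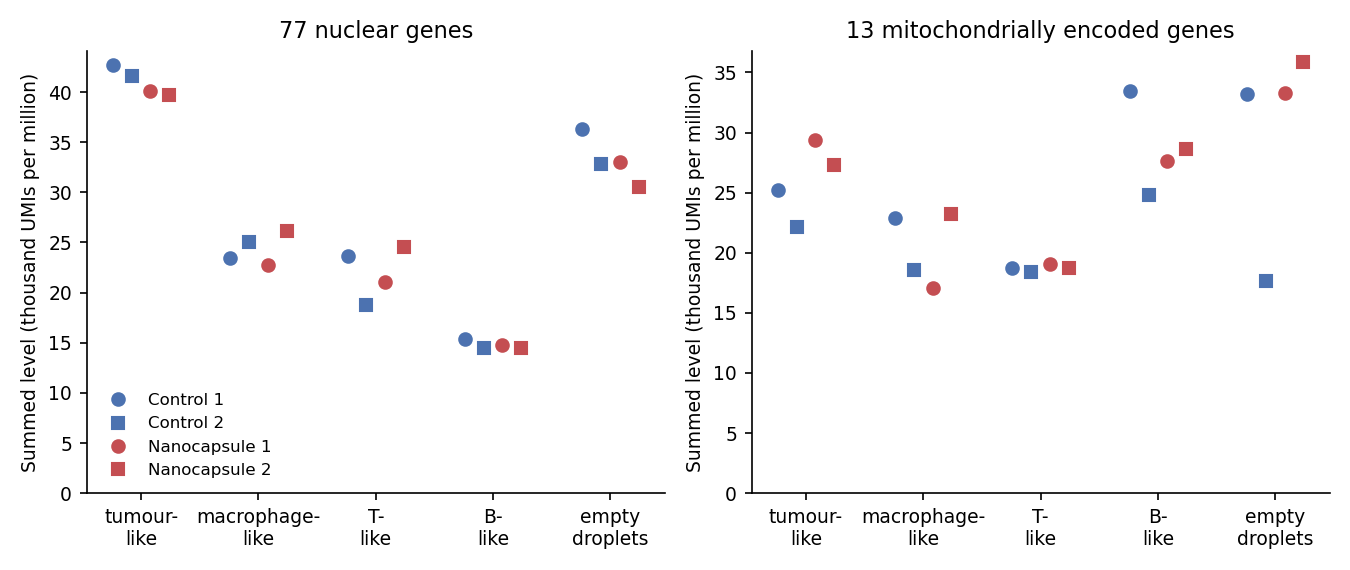
Summed level of the 77 nuclear genes (left) and the 13 mitochondrially encoded genes (right), in CPM, for each cell class and for empty droplets; each point is 1 library. In tumour-like cells the nanocapsule points lie below the controls on the left (40060 and 39716 against 42711 and 41588 CPM) and above them on the right.

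No single member passed edgeR's quasi-likelihood test in tumour-like cells after Benjamini-Hochberg (BH) adjustment at 0.05, and of all 15886 genes tested 0% did. At an unadjusted p under 0.05 there were 7 members with higher and 9 with lower levels, where 3.87% and 3.37% of all genes tested were. DESeq2's Wald test called 2 members, mt-Atp8 and mt-Nd6, beside 89 of all 15886 genes. All 13 mitochondrially encoded genes had a positive log2 fold, with a median of 0.31, and in 11 of them the nanocapsule libraries lay above both controls. Of the 77 nuclear genes, 61 had a negative fold, with a median of -0.09, whereas 49.7% of all genes tested did (50.3% were positive) and their median was 0.00. Control and nanocapsule libraries did not overlap in 32 nuclear genes that were lower and 6 that were higher, beside 18.8% and 19.3% of all genes tested. The nuclear median was -0.04 without Control 1, when 28 of 77 were positive, and -0.16 without Control 2.

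Complex I is the entry point for NADH, and its 7 mitochondrially encoded subunits form part of its membrane arm. Their sum was 6131 and 5903 CPM in the controls and 7300 and 6975 CPM in the nanocapsule libraries, 18.6% higher without overlap. mt-Nd6, the one protein gene on the opposite strand (chrM:13552-14070, GRCm38), was read at 60.4 and 48.6 CPM in the controls and 86.5 and 72.5 CPM in the nanocapsule libraries. Its log2 fold was 0.54 ± 0.13 (SE), with an adjusted p of 0.670 by edgeR's quasi-likelihood test. mt-Nd3 went from 111 and 120 CPM to 141 and 170 CPM and mt-Nd4l from 1635 and 1478 to 2170.5 and 1850.2 CPM. Those 3 genes lay apart between the groups, as did mt-Nd5, mt-Nd2, mt-Nd4 and mt-Nd1, whose log2 folds were 0.29, 0.31, 0.15 and 0.10.

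The 36 nuclear genes of complex I summed to 11332 and 11098 CPM in the controls and 10763 and 10655 CPM in the nanocapsule libraries, a difference of -4.50% without overlap. Ndufs8, a core subunit that carries iron-sulphur clusters of the peripheral arm, was read at 152 and 143 CPM in the controls and 133 and 123 CPM in the nanocapsule libraries (log2 fold -0.20 ± 0.07 SE). It was lower in each nanocapsule library than in each control, as were 14 of the 36 in all, beside 18.8% of all genes tested. Ndufb9, an abundant accessory subunit, had 884 and 778 CPM against 809 and 704 CPM and overlapped.

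Of the 36 genes 4 were higher without overlap, beside 19.3% of all genes tested, and they are described only as values. Ndufb1-ps, so listed in the files, had 215 and 239 CPM in the controls and 249.9 and 289.9 CPM in the nanocapsule libraries (log2 fold 0.25 ± 0.10 SE). Ndufa3 had 210.5 and 229 CPM against 237 and 271 CPM. Ndufv3, an accessory subunit of the NADH-binding module, had 580.1 and 482 CPM against 611 and 598 CPM. Ndufa1 was the other of the 4, and none passed the adjusted test.

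Complex II, the succinate dehydrogenase shared with the tricarboxylic acid cycle, was lower in all 4 of its genes, each without overlap, beside 18.8% of all genes tested. Its sum was 1166 and 1172 CPM in the controls and 1010.1 and 1027 CPM in the nanocapsule libraries, a difference of -12.9% and the largest relative one among the 5 nuclear sums. Sdhd, a membrane anchor (chr9:50596357-50603812, GRCm38), had 192 and 202 CPM in the controls and 162 and 163 CPM in the nanocapsule libraries. Its log2 fold was -0.28 ± 0.07 (SE), with an unadjusted p of 0.00649 and an adjusted p of 0.670 by edgeR's quasi-likelihood test. Sdhc, the other anchor, had 139 and 132 CPM against 119 and 117 CPM. Sdhb, the iron-sulphur subunit, had 744 and 678 CPM against 630.03 and 619 CPM, and the flavoprotein gene Sdha had 129 and 121 CPM against 118 and 112 CPM.

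Complex III passes electrons from ubiquinol to cytochrome c. Its mitochondrial gene mt-Cytb had 3507 and 2856 CPM in the controls and 3915 and 3523 CPM in the nanocapsule libraries, above both controls. Its 8 nuclear genes summed to 3641 and 3773 CPM against 3535 and 3707 CPM, and those ranges overlapped. Within them, the Rieske iron-sulphur protein Uqcrfs1 had 272 and 255 CPM in the controls and 238 and 219.7 CPM in the nanocapsule libraries, and the core protein Uqcrc1 had 244 and 244 CPM against 209 and 224 CPM. The small subunits Uqcrq and Uqcr10 overlapped between the groups, with log2 folds of 0.04 and -0.05.

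Complex IV is cytochrome c oxidase, and mt-Co1, mt-Co2 and mt-Co3 encode its core. mt-Co2 had 5037 and 3820.4 CPM in the controls and 6101 and 5382 CPM in the nanocapsule libraries, and mt-Co3 had 2500.2 and 2004 CPM against 2961 and 2621 CPM. mt-Co1, at 3877 and 3008 CPM against 4272 and 3752 CPM, overlapped because Control 1 exceeded Nanocapsule 2. The 12 nuclear genes summed to 12913 and 12028 CPM against 12093 and 11691 CPM and overlapped. Cox5a, a small subunit on the matrix side, had the most negative fold, with 838 and 724 CPM against 712 and 639.8 CPM. Cox4i1 spread as widely within the groups (2021 and 1422 CPM in the controls) as between them (1710 and 1410.0 CPM in the nanocapsule libraries). Ndufa4 had 1535 and 1467 CPM against 1463 and 1319 CPM and did not overlap. The small subunits Cox8a, Cox6a1 and Cox6b1 overlapped, with log2 folds of -0.01, -0.11 and -0.04, and Cox7a2 was lower without overlap at -0.08.

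The 17 nuclear genes of complex V, the rotary ATP synthase, summed to 13658 and 13516 CPM in the controls and 12658 and 12637 CPM in the nanocapsule libraries, a difference of -6.92% without overlap. The lower genes included subunits of the catalytic head and stalks. Atp5o, the connection between head and stator, had 870.5 and 793 CPM against 726 and 671 CPM (log2 fold -0.25 ± 0.09 SE), and Atp5f1, a stator subunit, had 574 and 544 CPM against 490.3 and 471 CPM. The Atp5g genes encode the same mature c subunit of the rotor ring, and 2 of them were lower without overlap: Atp5g1 at 759.6 and 754 CPM against 654 and 643 CPM, and Atp5g3 at 2509 and 2256 CPM against 2137 and 1990 CPM. Atp5g2 overlapped, at 1602 and 1281 CPM against 1550.0 and 1326 CPM.

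**Figure D2:**
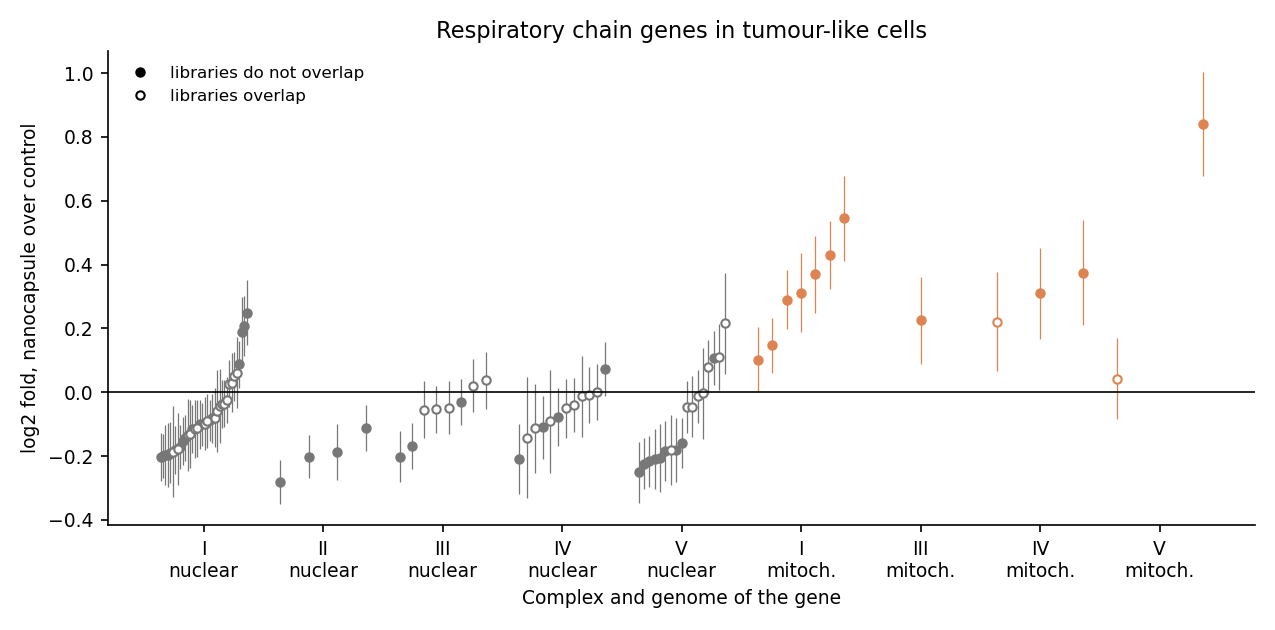
log2 fold of nanocapsule over control in tumour-like cells for all 90 genes, grouped by complex and genome, with edgeR's SE as error bars; filled points are genes whose control and nanocapsule libraries do not overlap. All 13 mitochondrially encoded genes (orange) lie above 0, and 61 of 77 nuclear genes (grey) lie below it.

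The highest fold of any member belonged to mt-Atp8, a membrane subunit of complex V. It had 684 and 596 CPM in the control and 1317 and 972 CPM in the nanocapsule tumour-like cells, with a log2 fold of 0.84 ± 0.16 (SE), an unadjusted p of 0.00220 and an adjusted p of 0.662 by edgeR's quasi-likelihood test. mt-Atp6, the proton channel subunit, is known to share its processed RNA. It had 4074 and 3375 CPM in the controls and 3883 and 3784 CPM in the nanocapsule libraries, and the groups overlapped (log2 fold 0.04 ± 0.13 SE). The 2 reading frames overlap by 43 bases in the annotation (GENCODE on GRCm38): mt-Atp8 spans chrM:7766-7969 and mt-Atp6 chrM:7927-8607, both on the plus strand. The sequence of mt-Atp8 is shown because its level and that of mt-Atp6 parted, and the capitals mark the stretch it shares with mt-Atp6:
mt-Atp8: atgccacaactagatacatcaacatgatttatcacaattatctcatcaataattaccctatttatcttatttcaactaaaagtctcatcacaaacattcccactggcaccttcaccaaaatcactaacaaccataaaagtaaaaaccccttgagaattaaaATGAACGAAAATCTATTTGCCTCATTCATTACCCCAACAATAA

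The count of mt-Atp8 UMIs per mt-Atp6 UMI in tumour-like cells was 0.168 and 0.176 in the controls and 0.339 and 0.257 in the nanocapsule libraries. The same order held in macrophage-like cells (0.172 and 0.203 against 0.386 and 0.290), in T-like cells (0.185 and 0.218 against 0.415 and 0.323) and in B-like cells (0.179 and 0.222 against 0.385 and 0.363). It also held in empty droplets, at 0.193 and 0.211 against 0.380 and 0.301. Nanocapsule 1 was the highest library in each of them. The log2 fold of mt-Atp8 was 0.75 ± 0.20 in macrophage-like, 0.79 ± 0.26 in T-like and 0.72 ± 0.19 in B-like cells (SE), with adjusted p of 0.395, 0.583 and 0.291 by edgeR's quasi-likelihood test. These classes come from the same 4 libraries and do not replicate one another. How reads that overlap both genes were counted is not given in the sources used here.

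**Figure D3:**
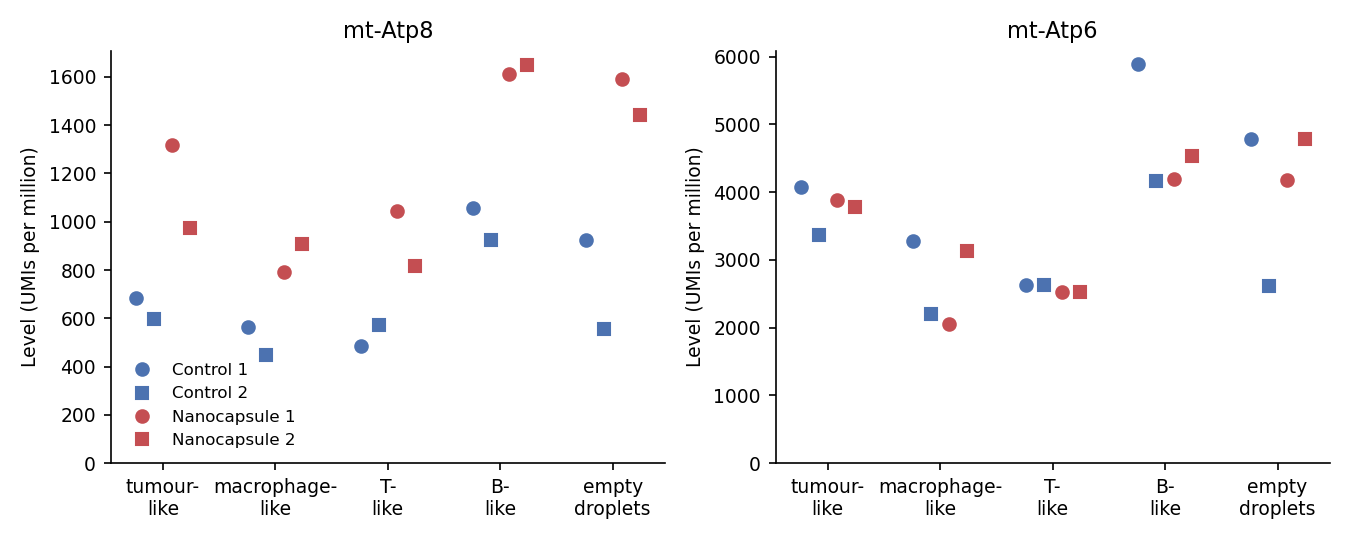
Level of mt-Atp8 (left) and mt-Atp6 (right) in CPM for each class (TMM-scaled) and for empty droplets (plain CPM); each point is 1 library. For mt-Atp8 both nanocapsule points lie above both control points in each class and in the empty droplets (1317 and 972 against 684 and 596 CPM in tumour-like cells), while for mt-Atp6 they overlap except in T-like cells, where they are slightly lower.

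The higher ratio of mitochondrial to nuclear UMIs was not seen in the immune classes. In macrophage-like cells it was 0.975 and 0.740 in the controls and 0.750 and 0.889 in the nanocapsule libraries, in T-like cells 0.789 and 0.979 against 0.905 and 0.763, and in B-like cells 2.17 and 1.71 against 1.87 and 1.97. The groups overlapped in each class. The log2 difference in tumour-like cells exceeded that in macrophage-like cells by 0.40, and the difference of the 2 log2 ratios within a library did not overlap between the groups (exact permutation p = 0.333, the smallest possible). T markers in macrophage-like cells summed to 85.5 and 81.5 CPM in the controls and 456 and 909.9 CPM in the nanocapsule libraries, with all 9 markers at a mean of 5 CPM or more and none at 0, and their part in these values was not tested. Macrophage markers in these cells summed to 21356 and 21826 CPM in the controls and 14112 and 13259 CPM in the nanocapsule libraries. With the finer clustering, the log2 ratio in macrophage-like cells was 0.03, -0.36, -0.38 and -0.05, and the groups overlapped.

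No member passed edgeR's quasi-likelihood test with BH adjustment in macrophage-like, T-like or B-like cells, where 0%, 0% and 0.153% of 8065, 5381 and 1955 genes did. DESeq2's Wald test called none of the members either, and 32, 3 and 1 of all these genes. At an unadjusted p under 0.05 there were 1, 3 and 1 members, all higher, where 4.14%, 3.77% and 2.51% of all genes tested were higher and 2.63%, 3.66% and 2.35% lower. In T-like cells 58 of 77 nuclear genes had a positive fold (50.5% of all genes tested did), with a median of 0.21. Of these genes 30 were higher and 4 lower without overlap, beside 18.3% and 17.2%. Markers moved in these T-like cells too: the 6 NK markers summed to 2160 and 2196 CPM in the controls and 1435 and 1378 CPM in the nanocapsule libraries. The 9 pigment cell markers summed to 383 and 298 CPM against 91.3 and 55.1 CPM. None of either list was at 0 throughout, and their part in the nuclear values was not tested. In macrophage-like cells 47 of 77 had a positive fold (51% of all genes tested) and 18 were higher and 8 lower without overlap, beside 19.2% and 17.2%. In B-like cells 65 nuclear genes had enough UMIs to be tested. Of these 26 had a positive and 39 a negative fold (49.6% and 50.4% of all genes), and 5 were higher and 13 lower without overlap, beside 16% and 18%.

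Over all called cells, which are mostly tumour-like, the picture was that of the tumour-like cells. None of the 90 genes passed the adjusted test of edgeR, nor did any of 16937 genes (0%). DESeq2's Wald test called Sdhd, mt-Atp8 and mt-Nd3, beside 169 of all 16937 genes. At an unadjusted p under 0.05 there were 5 members with higher and 12 with lower levels, beside 4.29% and 3.63% of all genes. All 13 mitochondrially encoded and 14 of 77 nuclear genes had a positive fold, beside 50.8% and 49.2% of all genes with a positive and a negative one. Without overlap 13 members were higher and 41 lower, beside 19.9% and 19.1%.

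Tumour-like cells fell into 11 clusters, and the ratio was followed in each. The nanocapsule libraries had a higher ratio than both controls in 10 of the 11, and in 9 of the 10 with at least 10 cells in every library. The mitochondrial sum was higher without overlap in 8 and overlapped in 3, and the nuclear sum was lower without overlap in 7, overlapped in 3 and was higher in 1. Low log2 ratios were found in the cluster led by Cdc20, an activator of mitotic exit (-1.14 to -0.70), and in the cluster led by Cck (-1.10 to -0.58). The exception was a cluster of 107 cells led by Gm26917 and the nuclear RNA Neat1, in which the log2 ratio ran from 1.99 to 2.78 and the nuclear members summed to only 8050 to 14455 CPM. In another cluster of 119 cells, led by the interferon-induced Iigp1 and Igtp, the controls held 6 and 7 cells, and this was the cluster with a higher nuclear sum.

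**Figure D4:**
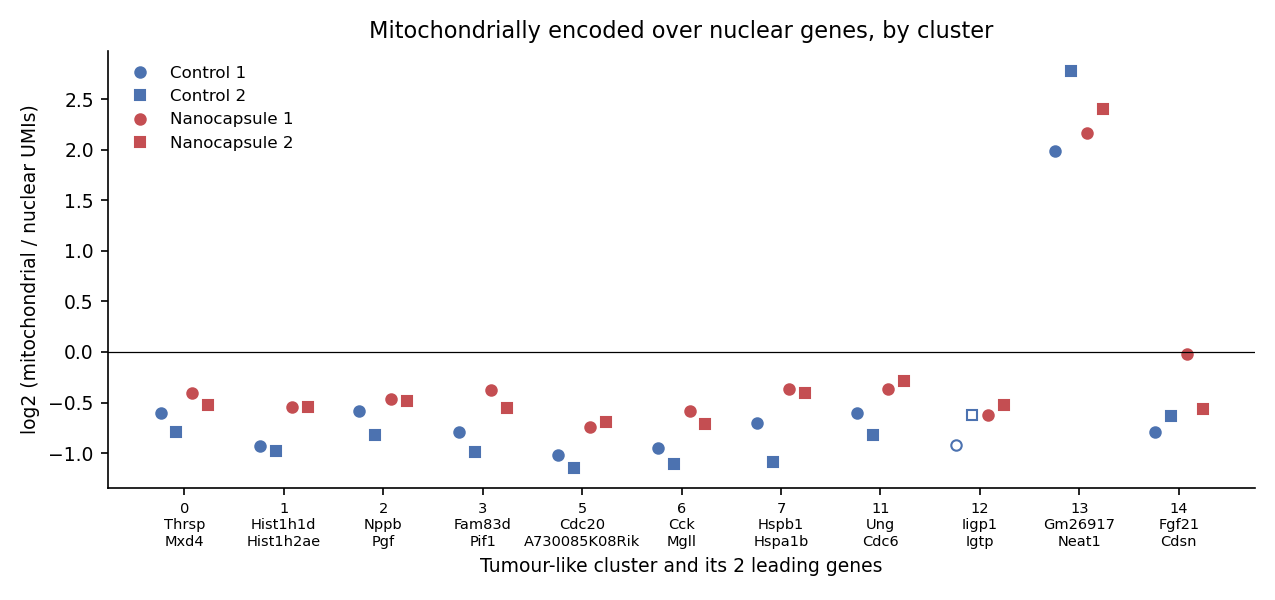
log2 ratio of mitochondrially encoded to nuclear UMIs of the members in each tumour-like cluster, with its 2 leading genes on the axis; each point is 1 library, open where it has under 10 cells. In 10 of 11 clusters both nanocapsule points lie above both control points, and cluster 13 stands apart between 1.99 and 2.78.

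Barcodes at the ends of the mitochondrial range were picked by a share that the mitochondrially encoded members help to make up. Their levels are therefore set in part by that choice and carry no test. Among barcodes of at least 1500 UMIs, 93, 50, 142 and 163 had over 20% mitochondrial UMIs. In these the mitochondrially encoded members took 510206 to 655893 CPM, which leaves less of the total for other genes, and the nuclear members summed to 7031 to 13412 CPM. Barcodes with under 0.2% mitochondrial UMIs numbered 190, 242, 233 and 194, and in them the nuclear members summed to 43138 to 44741 CPM while the mitochondrially encoded members summed to 406 to 603 CPM.

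Genes that build or serve the chain were followed in lists chosen by role. In tumour-like cells none of their members passed edgeR's adjusted test. The counts below stand beside 50.3% of all genes tested with a positive and 49.7% with a negative fold, and 18.8% lower and 19.3% higher without overlap. Of 78 tested genes of the mitochondrial ribosome, which translates the 13 mitochondrially encoded messages, 1 had a positive fold and 57 were lower without overlap (18.8% of all genes), with a median of -0.15. Mrpl12, which also binds the mitochondrial RNA polymerase, had 392 and 389 CPM in the controls and 317 and 319.8 CPM in the nanocapsule libraries, and Mrps7 had 106 and 108 CPM against 86.7 and 89.9 CPM. These 2 were named for the smallest unadjusted p of the list, a rule that picks genes with a wide gap between the groups. Each had an adjusted p of 0.670 by edgeR's quasi-likelihood test.

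All 13 genes of the tricarboxylic acid cycle had a negative fold (49.7% of all genes) and 11 were lower without overlap (18.8%), with a median of -0.14. Idh3a, a subunit of the NAD-dependent isocitrate dehydrogenase, had 205 and 205 CPM in the controls and 159 and 173 CPM in the nanocapsule libraries. Of 46 assembly factors 3 had a positive fold and 21 were lower without overlap (18.8% of all genes), among them Ndufaf5 at 27.8 and 29.0 CPM against 23.9 and 24.6 CPM. Cyc1, the cytochrome c1 of complex III that the symbol rule did not take, had the largest gap among the electron carriers, with 489 and 482 CPM in the controls and 372 and 388 CPM in the nanocapsule libraries (log2 fold -0.35 ± 0.08 SE, adjusted p of 0.670 by edgeR's quasi-likelihood test). Of 13 genes in that list 2 had a positive fold and 6 were lower without overlap (18.8% of all genes).

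Genes for the expression of the mitochondrial genome were mostly on the lower side. Of their 27 tested genes 7 had a positive fold, 11 were lower and 1 was higher without overlap (18.8% and 19.3% of all genes), with a median of -0.07. Tufm, the elongation factor of the organelle, had 94.2 and 95.5 CPM against 81.6 and 81.9 CPM, and Fastkd1 had 15.6 and 15.4 CPM against 13.3 and 11.7 CPM. Among 11 nuclear regulators 5 had a positive fold, with a median of 0.00. Esrra, a nuclear receptor that drives respiratory genes, had 19.5 and 17.3 CPM in the controls and 14.5 and 14.6 CPM in the nanocapsule libraries, and Hif1a had 218 and 201 CPM against 252 and 228 CPM.

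Levels of the nuclear members were lower in the immune classes than in tumour-like cells. Levels in this comparison are CPM without further scaling, and differences are log2 of CPM plus 1. Of 77 nuclear members, 69 were lower and 1 higher in macrophage-like than in tumour-like cells in all 4 libraries, beside 45.1% and 30.5% of all genes compared, with a median difference of -0.62 against -0.22 for all genes. T-like cells were lower in 66 of 77 (29.6% of all genes, median -0.87 against 0.10 for all genes), and B-like cells in 61 of 65 (27%, median -1.41 against 0.66). Here and below, all genes are those that passed the count filter in the immune class itself: 8065, 5381 and 1955 in macrophage-like, T-like and B-like cells. Such a filter favours genes that are high in that class, the more so the fewer it keeps. Its part in the gap to all genes was not tested. Classes came from clusters of the same cells, so these are descriptions and carry no test. Median depth was 2999.5 to 6850.5 UMIs per T-like and 1833 to 3324 per B-like cell, against 38584 to 90138 per tumour-like cell. Across cells of a library the nuclear share correlated with depth at 0.59, 0.05, 0.39 and 0.69 in T-like cells. In B-like cells it did so at 0.05, -0.24, -0.41 and 0.25. The part of depth in these levels was not tested.

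The drop was uneven among members. In macrophage-like cells Ndufa4 stood at 386, 489, 272 and 405 CPM against 1486, 1518, 1436 and 1339 CPM in tumour-like cells. Ndufa5 and Sdhb followed, with median differences of -1.69 and -1.63. At the other end, Atp5k, a small membrane subunit of complex V, was higher in macrophage-like cells in all 4 libraries, with a median difference of 0.33, and Sdha was nearly level at -0.04. T-like cells had more Uqcrh, the hinge protein of complex III, at 604, 628, 554 and 577 CPM against 434, 425, 426 and 406 CPM. The 5 complexes kept similar shares of the nuclear member UMIs in both large classes: complex I took 26.5 to 26.9% in tumour-like and 27.2 to 28.2% in macrophage-like cells.

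Most mitochondrially encoded genes were also lower in T-like cells, while the result in macrophage-like cells depended on the UMI minimum. In macrophage-like cells 9 of 13 were lower and 1 higher in all 4 libraries (45.1% and 30.5% of all genes), with a median difference of -0.36. In macrophage-like cells of at least 1500 UMIs, the minimum used for T-like and B-like cells, 7 were lower and 1 higher (49% and 32.6% of all genes). The median there was -0.27, beside -0.26 for all genes. In T-like cells 10 of 13 were lower and 0 higher (29.6% and 35.8% of all genes), with a median of -0.54. B-like cells differed, with 1 lower and 4 higher (27% and 52.2% of all genes) and a median of 0.16, beside 0.66 for all genes. The 1 gene that was higher in macrophage-like cells was mt-Co1, at 5214, 4056, 4733 and 5133 CPM against 3755, 3112, 4195 and 3810 CPM in tumour-like cells in every library. In B-like cells it reached 5197 to 8374 CPM. B-like cells had the lowest nuclear sums, 14495 to 15414 CPM, and mitochondrial sums of 24816 to 33453 CPM. Pigment cell markers, which the empty droplets held at 7913 to 9858 CPM, summed to 534 to 1898 CPM in macrophage-like, 55.1 to 383 CPM in T-like and 186 to 847 CPM in B-like cells, with all 9 present above 0 in each class, and their part in these levels was not tested.

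The tumour-like clusters with the hypoxia-induced Ndrg1 among their leading genes, here called Ndrg1 clusters, gave another contrast. They were clusters 2 (led by Nppb, Pgf and Pkp2) and 7 (led by Hspb1, Hspa1b and Ddit4), picked by that gene alone. They were set against the 5 other tumour-like clusters of at least 500 cells, a choice made after the clusters were seen. Nuclear members summed to 39063, 37283, 36476 and 35277 CPM there against 44038, 42947, 41741 and 41424 CPM. Of 77, 60 were lower in all 4 libraries, beside 49.5% of all genes compared, and 6 were higher, beside 19.9%. The median difference was -0.20 for the nuclear members and -0.15 for all genes. Of the 12 nuclear genes of complex IV, 6 were lower and 1 higher, with a median of -0.05. Of the 13 mitochondrially encoded members 7 were lower and 3 higher, near the shares of all genes. All 4 genes of complex II were lower, with Sdhb at 462, 401, 397 and 387 CPM against 787, 742, 693 and 692 CPM. mt-Nd1 had the lowest difference of all members, -0.98, whereas mt-Co1 was higher at 0.46, as were Ndufv3 at 0.53 and Cox7a2l at 0.36.

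**Figure D5:**
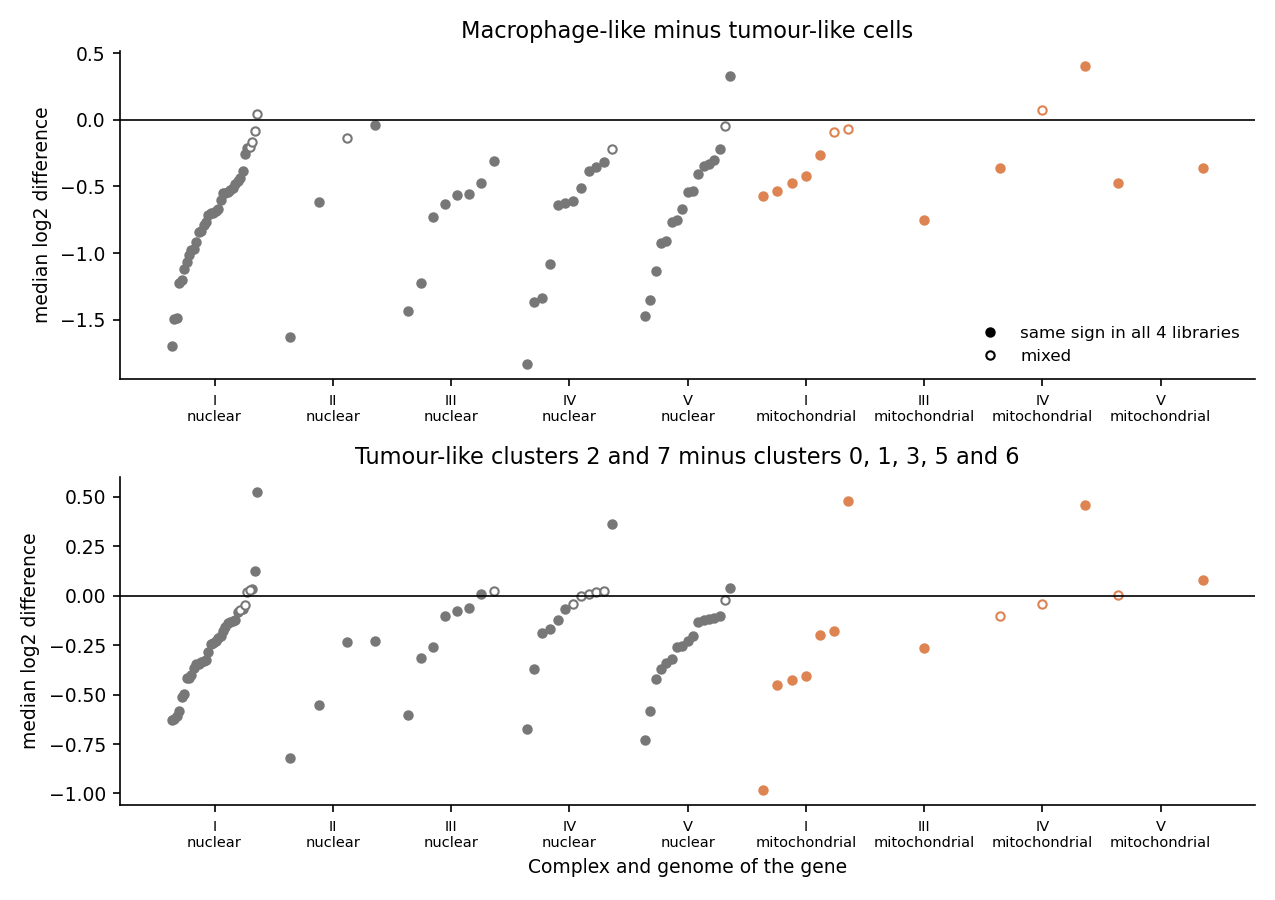
Median over 4 libraries of the log2 difference for each member, grouped by complex and genome: macrophage-like minus tumour-like cells (top) and the 2 Ndrg1 clusters of tumour-like cells minus 5 other large ones (bottom). Filled points have the same sign in all 4 libraries. In the top panel 69 of 77 nuclear genes lie below 0 in all libraries and mt-Co1 lies above it, and in the bottom panel mt-Nd1 is lowest at -0.98.

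Paralogues of complex IV and V subunits marked the classes. Among UMIs of the Cox7a family, Cox7a2l made up 23.0, 19.8, 23.1 and 19.5% in tumour-like cells. Its share was 29.7, 28.8, 32.8 and 27.6% in macrophage-like cells, where the exact 95% intervals (Clopper-Pearson, counting error only) reached from 25.05 to 36.6%. In T-like cells it was 60.0, 49.1, 47.1 and 36.4%, from 60 to 508 UMIs of the family, and in B-like cells 58.0, 56.7, 59.3 and 66.7%, from 33 to 67 UMIs. No tumour-like library reached the lower limit of any macrophage-like, T-like or B-like library. Of the c subunit genes, Atp5g3 gave 49.2 to 52.6% of the UMIs in tumour-like, 38.9 to 43.8% in macrophage-like and 33.3 to 46.8% in B-like cells.

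Paralogues below the level for members were higher in particular clusters. Cox6a2, known as the heart and skeletal muscle form of its subunit, stood at 1715, 1719, 1403 and 1818 CPM (69, 217, 32 and 82 UMIs) in 34 plasmacytoid dendritic-like cells and was among their leading genes, so this is no test. Empty droplets held 0.790 to 2.90 CPM. In the tumour-like cluster led by Fgf21 it reached 17.5, 38.6 and 22.2 CPM in Control 2, Nanocapsule 1 and Nanocapsule 2, while 0 UMIs in the 12 cells of Control 1 allow up to 7.10 CPM. Cox4i2, the form of subunit 4 linked to low oxygen, had 24.1, 76.4, 31.4 and 247 CPM in 30 fibroblast-like cells, from 9, 14, 2 and 33 UMIs. These cells numbered 17, 6, 3 and 4 by library, and their nuclear members summed to 36323, 24715, 16457 and 19898 CPM. Ndufa4l2, the hypoxia-linked relative of Ndufa4, had 42.8, 213, 628 and 284 CPM in the same cells. Cox7a1, the muscle form of subunit 7a, was among the leading genes of the tumour-like cluster led by Thrsp, at 10.8, 13.9, 11.2 and 10.2 CPM. Elsewhere in tumour-like clusters it stayed at 6.11 CPM or below.

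Promoters of the nuclear members were searched for the letters of 3 factors named in textbooks as binding them. RefSeq windows (GRCm38.p6) of 250 bases before and 50 after the start matched 65 of 77 nuclear members. The core CGCATGCG of the NRF1 motif was in 9 of them (13.8%), beside 2.07% of 27025 genes with such windows. The ETS letters CCGGAAG were in 17 (26.2%, beside 9.93%) and the YY1 letters AAGATGGCG in 7 (10.8%, beside 1.64%), each searched on both strands. The ETS string ends in the letters with which the YY1 string begins, so 1 stretch can hold both. In all, 27 members held at least 1 of the 3. The 4 members with the NRF1 core within 100 bases before the start are shown, capitals marking it. In tumour-like cells their log2 folds were 0.22 for Atp5k, -0.00 for Atp5g2, -0.11 for Ndufa11 and -0.18 for Ndufa8, and the libraries overlapped in each. A match describes letters and not a bound site. The windows lie at chr5:108434400-108434499 (minus), chr15:102671048-102671147 (minus), chr17:56717657-56717756 (plus) and chr2:36049339-36049438 (minus), in the order printed.
Atp5k: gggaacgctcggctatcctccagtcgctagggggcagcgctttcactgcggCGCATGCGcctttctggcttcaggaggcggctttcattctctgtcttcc
Atp5g2: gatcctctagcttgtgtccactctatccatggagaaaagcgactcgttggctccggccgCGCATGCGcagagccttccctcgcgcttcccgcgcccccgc
Ndufa11: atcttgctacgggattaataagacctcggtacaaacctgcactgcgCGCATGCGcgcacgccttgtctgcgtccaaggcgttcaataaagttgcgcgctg
Ndufa8: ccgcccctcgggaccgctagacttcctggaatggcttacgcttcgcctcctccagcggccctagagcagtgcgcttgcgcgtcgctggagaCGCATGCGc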

How the data were processed

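The chemistry was 10x Genomics 3′ v2, per the labels' protocols, and the authors deposited 1 matrix of raw UMI counts per library. The submitters' processing notes name mm10 and Cell Ranger 2.1.1, whereas the file headers name Cell Ranger 4. The members and gene lists were chosen with earlier results of these data known.

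Barcodes reaching an order-of-magnitude minimum (8763 to 16257 UMIs by library), 200 genes and at most 20% mitochondrial UMIs were called cells. They were clustered in scanpy 1.11.5 (2000 variable genes without members or mitochondrially encoded genes, 30 components, Leiden resolution 1.0) and named from marker lists. Doublets were not removed and no doublet caller was run here. UMI sums per library and class went into edgeR 4.0.16 under R 4.3.3 (robust quasi-likelihood test after filterByExpr and TMM, BH at 0.05), with DESeq2 1.42.0 as an alternative. The SE is the absolute log2 fold over the root of edgeR's F. Gene levels are TMM-scaled CPM, sums are plain CPM. UMI counts were not divided by gene length, so levels are compared between libraries and classes, not between genes. Positions and the mt-Atp8 sequence come from GENCODE M21 (GRCm38), promoters from RefSeq.

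Named were the mitochondrially encoded genes, in each complex the 2 most abundant nuclear members and the 2 with the smallest p in tumour-like cells, paralogue pairs, the 2 list genes with the smallest p, and the 3 extreme members between classes. Others (Ndufb1-ps, Ndufa3, Sdha, Atp5o, Uqcrh, Ndufa8, Ndufa11, Atp5k, and Sdhb and Cox7a2l in the Ndrg1 clusters) were chosen after their values were seen. mt-Atp6 overlaps mt-Atp8 and mt-Co3, and mt-Nd4l overlaps mt-Nd4, on 1 strand, so their reads may be split; the same holds for Ndufa13 and Yjefn3. The fit was tested on simulated data. One result that the naming rule would have given is not reported here.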

Additional observations from a re-analysis of the deposited data

How the results depend on the processing

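The ratio of mitochondrially encoded to nuclear UMIs in tumour-like cells kept its sign under all alternatives, with log2 differences from 0.27 to 0.42. The count of members called in edgeR was 0 in most settings. DESeq2's Wald test called 3 over all called cells and 2 in tumour-like cells, beside 169 of 16937 and 89 of 15886 genes. The fit with the replicate number as a block called 13 and 11 members, beside 548 and 263 of the same genes. The 11 were mt-Atp8, mt-Nd6, mt-Nd3, mt-Nd4l, mt-Nd2, mt-Nd5, mt-Co2, mt-Co3, Sdhd, Atp5o and Ndufb1-ps. The labels do not say that the numbers pair the libraries (deviations of same-numbered libraries correlated at 0.42 over all called cells, 0.29 in tumour-like, 0.11 in macrophage-like, 0.05 in B-like and -0.09 in T-like cells), and the block called 0 members in the other 3 classes. With no filter on low counts 1 member, mt-Atp8, was called in macrophage-like cells, beside 232 of all 16041 genes. In B-like cells without Control 2 the log2 fold of mt-Co1 was -0.50. The nuclear complex II difference of -0.20 became -0.21, -0.21, -0.22 and -0.24 with 8000 UMIs, at most 10% mitochondrial UMIs, every cluster with the tumour score, and cells of 40000 to 80000 UMIs, and complex V became -0.11 under each of the first 3 (-0.112, -0.113, -0.115). In that depth window complex I became -0.0410 and all nuclear members -0.0585. Leaving out 1 library in turn, nuclear complex III ranged from -0.0682 to 1.67e-05. Likewise signs changed for genes with small folds: mt-Atp6 (-0.0873 to 0.18), Uqcrq (-0.0116 to 0.0882), Uqcr10 (-0.10 to 0.0014), Cox4i1 (-0.37 to 0.13), Cox8a (-0.15 to 0.14), Atp5g2 (-0.16 to 0.17), Cox7a2l (-0.28 to 0.13), Cox6a1 (-0.26 to 0.0505), Cox6b1 (-0.0943 to 0.0163) and Ndufa5 (-0.17 to 0.0681). Cox8a (0.00802) and Atp5g2 (0.00445) also changed sign with 1500 UMIs, and Atp5g2 (0.0010) with the replicate block. The causes were not tested. With 2 libraries a group, the fits have few degrees of freedom, and T-like and B-like cells few UMIs.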
